A study of Mus musculus with 12 samples.

Results

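Chromatin accessibility was read at 9 genes of dendritic cells, mast cells and basophils (Zbtb46, Batf3, Xcr1, Siglech, Tcf4, Cpa3, Mcpt8, Ms4a2 and Fcer1a) in ATAC-seq libraries of bone marrow derived macrophages. The members are all peaks whose assigned gene in the authors' annotation is one of these genes. They number 82 of 139999 peaks and fall on 5 of the 9 genes. Tcf4 holds 49 of them, Batf3 holds 16, Zbtb46 and Siglech hold 8 each and Mcpt8 holds 1. No peak was assigned to Xcr1, Cpa3, Ms4a2 or Fcer1a.

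ATAC-seq uses the Tn5 transposase to cut open chromatin, so the reads in a peak measure how accessible that stretch of DNA is, averaged over all cells of a library. The series has 12 libraries in 6 groups of 2, all from primary cells of male C57BL/6J mice aged 8 weeks at the start. In the first phase the groups are diabetic and healthy. In the rest phase, after 7 days of culture with M-CSF in 5 mmol/L glucose, they are diabetic-trained and untrained. In the second phase, the same 2 kinds of culture had a further 16 hours of stimulation with 10 ng/mL of IFN-γ plus 100 ng/mL of LPS. Diabetes was induced with daily low-dose streptozotocin (42 to 45 mg/kg for 5 days), animals with blood glucose above 16.9 mmol/L entered the study, and marrow was taken after 6 weeks of hyperglycaemia. When the first-phase cells were taken, and whether paired libraries come from different animals, is not in the labels, so a p-value here covers the spread from library to library alone, which could be technical. The deposited tables do not say which mean column is the diabetic group. Here the group in the first mean column is called A and the other B, and the letters cannot be carried from one phase to the next.

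Zbtb46 is a transcription factor that marks conventional dendritic cells, the antigen-presenting cells that prime T cells. Batf3 is a transcription factor needed for the cross-presenting kind of conventional dendritic cell, and Xcr1 is the chemokine receptor by which those cells are known. Tcf4, an E protein that binds E-box motifs, directs the plasmacytoid dendritic cell, a specialist in type I interferon. Siglech is a receptor of the Siglec family on the surface of that cell. Cpa3 is a carboxypeptidase of mast cell granules and Mcpt8 a protease of basophil granules. Fcer1a and Ms4a2 encode the alpha and beta chains of the high-affinity IgE receptor that arms both cell types. Macrophages grown with M-CSF belong to none of these lineages, although all of them derive from bone marrow progenitors.

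Promoter sequences of 8 of the 9 genes were found in RefSeq's table for GRCm38.p6 (250 bases before to 50 after the start, 300 in all). A peak lay over 2 of them, those of Batf3 (245 of 300 bases) and Siglech (270 of 300 bases), which are shown because the start peaks described below sit on them. Those of Cpa3 and Ms4a2 are shown as examples from genes to which no peak was assigned. All are written 5′ to 3′ on the gene's own strand, with matches to the motifs in capitals.
Batf3 promoter, chr1:191098164-191098463, plus strand: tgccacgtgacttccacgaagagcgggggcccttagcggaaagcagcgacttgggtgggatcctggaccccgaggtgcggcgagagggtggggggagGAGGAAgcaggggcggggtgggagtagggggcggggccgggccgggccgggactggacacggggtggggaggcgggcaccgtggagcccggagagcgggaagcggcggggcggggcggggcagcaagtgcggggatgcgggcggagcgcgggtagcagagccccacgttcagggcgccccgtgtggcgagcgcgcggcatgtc
Siglech promoter, chr7:55767934-55768233, plus strand: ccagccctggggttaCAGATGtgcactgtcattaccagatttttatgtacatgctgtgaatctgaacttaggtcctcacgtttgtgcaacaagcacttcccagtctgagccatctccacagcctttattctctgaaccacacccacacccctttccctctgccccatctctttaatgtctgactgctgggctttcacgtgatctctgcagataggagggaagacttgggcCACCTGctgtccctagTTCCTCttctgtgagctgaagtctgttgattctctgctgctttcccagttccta
Cpa3 promoter, chr3:20242132-20242431, minus strand: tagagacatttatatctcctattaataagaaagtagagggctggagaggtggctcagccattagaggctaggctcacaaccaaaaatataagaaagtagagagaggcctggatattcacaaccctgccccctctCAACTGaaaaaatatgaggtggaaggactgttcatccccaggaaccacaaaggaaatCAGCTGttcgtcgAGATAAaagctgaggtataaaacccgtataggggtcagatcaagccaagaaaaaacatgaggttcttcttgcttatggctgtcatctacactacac
Ms4a2 promoter, chr19:11623670-11623969, minus strand: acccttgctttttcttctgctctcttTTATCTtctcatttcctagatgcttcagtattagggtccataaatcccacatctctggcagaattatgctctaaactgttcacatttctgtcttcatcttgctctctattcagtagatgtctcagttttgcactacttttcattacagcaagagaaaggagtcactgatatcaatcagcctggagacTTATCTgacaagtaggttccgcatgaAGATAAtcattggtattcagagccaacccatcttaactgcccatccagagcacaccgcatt

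The motifs were searched on both strands. The GATA motif AGATAA was found in 3 of the 8 promoters, all of mast cell and basophil genes, with 3 matches in Ms4a2 and 1 each in Cpa3 and Fcer1a. It is found in 11.2% of all 32851 promoters of the table. The E-box CAGNTG was found in 5 of the 8 and in 51.4% of all. The PU.1 and ETS core GAGGAA was found in 4 of the 8, Batf3 and Siglech among them, and in 28.3% of all. The AP-1 and BATF motif TGANTCA was found in 1 of the 8, Zbtb46, and in 7.81% of all, and the IRF motif (GAAA, any 2 bases, GAAA) in 0 of the 8 and in 3.44% of all. Matches of TGANTCA and CAGNTG that read the same on both strands were counted once, and in Mcpt8 a GAGGAA match overlaps an E-box match. A match is a description of these letters only.

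The libraries differed in depth, with between 3832347 (second phase, B1) and 18617444 (rest phase, A1) reads in peaks. Accessibility levels below are log2 (reads + 1), with reads quantile-scaled over all 12 libraries. The peaks are of equal width, 400 bp, so levels can be compared between them. The 2 group A libraries of the first phase were nearly as alike as sampling noise allows (variance ratio 1.13) and were counted as 1 sample, which gives n = 3 in the first phase and n = 4 in each of the others. A pair of second-phase libraries went against their label. At 11 interferon-response genes, the mean level was 5.12 in second-phase library A1 and 4.91 in B1, against 6.38 in A2 and 6.50 in B2, while rest-phase libraries lay between 5.02 and 5.08. Over all peaks, second-phase A1 correlated with the rest-phase libraries at a Pearson r of 0.841 to 0.977, and with its group partner A2 at 0.823. The 0.977 was with rest-phase A1 (variance ratio 1.94), which was less like its own partner A2 (r 0.967, variance ratio 3.05). These libraries were still counted as separate samples. For second-phase B1 the values were 0.805 to 0.895, and 0.737 with its partner B2. The comparison of the second with the rest phase is therefore given with and without A1 and B1. The labelled cell type was checked against macrophage genes. Of 12 macrophage genes, the start peak rose in 8 and fell in 1 (Spi1) in the rest phase against the first phase, or 6 and 0 with the authors' scaling. The largest rise of these start peaks was at C1qc, a subunit of complement C1q. Its level was 8.58 ± 0.10 in the rest phase (SD, n = 4) and 5.67 ± 0.48 in the first phase (SD, n = 3). Of all 92 peaks of the macrophage list, 37 rose and 13 fell with quantile scaling, beside 19.8% and 18.7% of all peaks. The largest called changes of the list were falls at Spi1 (log2 fold -4.11) and Adgre1 (-3.46), then rises at Csf1r (3.31) and C1qc (3.03). Of 7 other lymphoid genes, 4 start peaks fell and 0 rose, or 3 and 0 with the authors' scaling, and Cd79a, a B cell receptor subunit, had 3.32 ± 0.89 in the rest phase and 7.25 ± 1.18 in the first phase. The mean level over all peaks of the lymphoid list ran from 4.40 to 4.51 in rest-phase libraries and from 4.78 to 5.33 in first-phase libraries.

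Most peaks of the 5 genes were of ordinary height. The median level over the 82 peaks was 4.53, against 4.68 over all peaks, with a range of 3.2 to 7.98. Promoter annotations cover 14 of the 82 peaks, introns 32 (28 of them in Tcf4) and distal intergenic sequence 30. The highest was the Tcf4 peak at chr18:69344224-69344623 over the most 5′ start (mm10), at the 95.5th percentile of all peaks. The next were the Batf3 peaks at chr1:191085535-191085934 (94.6th percentile) and chr1:191125896-191126295 (94.2nd). The highest Zbtb46 peak, at chr2:181410794-181411193 in the 3′ UTR, stood at the 84.5th percentile, while the highest peak of Siglech had a level of 5.34 and the only peak of Mcpt8 a level of 4.68.

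In the rest phase against the first phase, calls went different ways at different genes. With quantile scaling 2 of 8 Zbtb46 peaks fell, the start among them, 5 of 16 Batf3 peaks rose, all away from the start, 3 of 8 Siglech peaks fell and 1 rose, and 13 of 49 Tcf4 peaks rose and 5 fell. Of the 82 peaks, 29 passed limma at an adjusted p under 0.05, 19 higher and 10 lower in the rest phase. That is 35.4% of the members against 38.5% of all 139557 peaks tested, 19.8% higher and 18.7% lower, so the share called is near that of the genome. The median log2 fold was 0.25 over the members and 0.02 over all peaks. Libraries did not overlap between the phases at 17 member peaks that were above and 6 that were below, against 18.8% and 18.9% of all peaks. Among promoter peaks 2 rose and 5 fell of 14, beside 15.4% and 26.8% of all promoter peaks. Among the others 17 rose and 5 fell of 68, beside 21.3% and 15.8% of all such peaks, so promoters of the genome also fell more often than they rose. With the authors' scaling the median of all peaks itself shifted to 0.76, with 27 members higher and 3 lower, against 29.1% of all peaks called, 24.1% higher and 4.96% lower. With total reads in peaks the median was 0.31, with 27 members higher and 5 lower, against 39.9% of all peaks, 26.6% higher and 13.2% lower. In bulk libraries, fewer cells with an open site and less opening per cell cannot be told apart, and the lymphoid and macrophage markers given above moved between the same phases. Their part in these results was not tested.

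**Figure D1:**
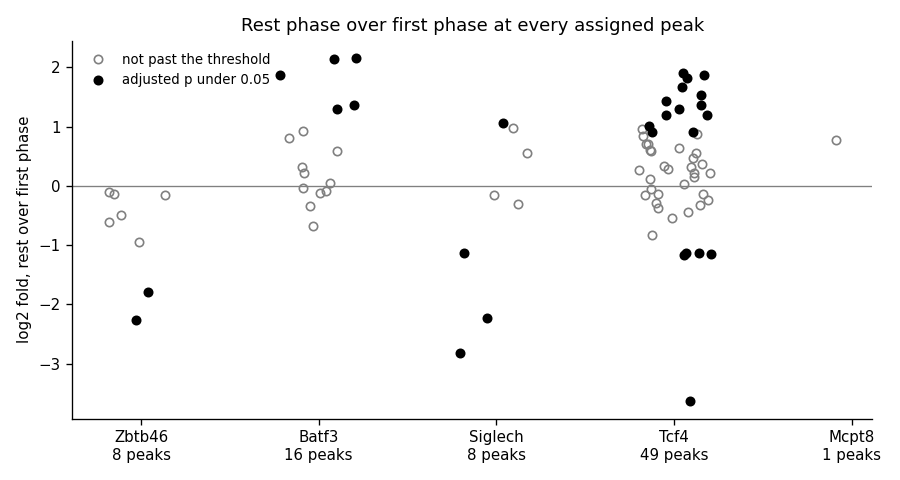
Log2 fold of the rest phase over the first phase at each of the 82 peaks, by gene, with peaks past an adjusted p of 0.05 (limma, quantile-scaled reads) as filled circles. The filled circles of Zbtb46 lie below 0, those of Batf3 above it, and those of Tcf4 on both sides, down to -3.64.

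Zbtb46 had its clearest change at its start peak, which lies over an annotated start of the gene. The Zbtb46 promoter searched for motifs, at chr2:181424339-181424638, is that of another start and had 0 peaks over it. The start peak, at chr2:181459296-181459695, had levels of 8.31 and 8.42 (group A) with 7.72 and 6.61 (group B) of the first phase. It had 5.08 and 5.43 (group A) with 5.43 and 5.38 (group B) of the rest phase, and 4.93 and 4.80 (group A) with 4.50 and 4.78 (group B) of the second. Every library of the later phases lay below every library of the first phase. The peak fell by 2.27 on the log2 scale in the rest phase (SE 0.36, adjusted p = 0.000195). With the authors' scaling its log2 fold was -1.60 and did not pass (adjusted p = 0.0944). The other Zbtb46 peak that fell lies in intron 1 of 4, at chr2:181443024-181443423, with mean levels of 3.45 ± 0.84 in the rest phase and 5.27 ± 0.55 in the first phase and a log2 fold of -1.80 (SE 0.45, adjusted p = 0.0059). The highest peak of the gene, in the 3′ UTR, had 6.32 ± 0.22 in the rest phase and 6.43 ± 0.31 in the first phase, a log2 fold of -0.11 (SE 0.26) that did not pass. All 8 Zbtb46 peaks had folds below 0 with quantile scaling and none passed in the upward direction. By the authors' scaling 5 of the 8 folds were above 0, none passed, and the median of the gene was 0.15, below the shift of all peaks there.

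**Figure D2:**
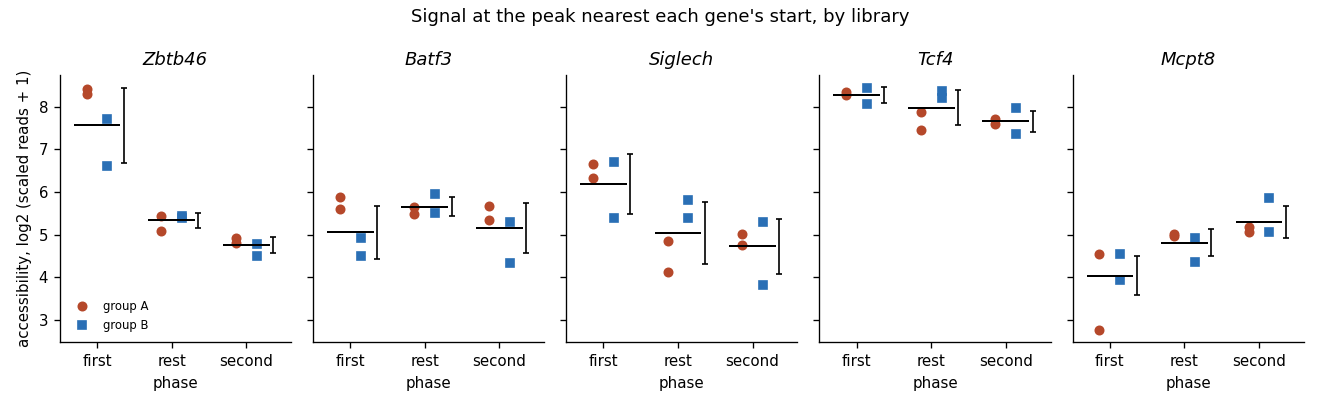
Accessibility, as log2 (scaled reads + 1), at the peak nearest the start of each of the 5 genes with a peak, for every library by phase. Circles are group A, squares group B, the line is the phase mean and the bar its SD, and the first-phase libraries of Zbtb46 all stand above those of later phases.

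The Batf3 peaks that passed lay away from its start. The start peak, at chr1:191098219-191098618, had levels of 5.66 and 5.48 (group A) with 5.51 and 5.96 (group B) of the rest phase. The first phase had 5.59 and 5.88 (group A) with 4.91 and 4.51 (group B). The phases overlapped, and the log2 fold of 0.58 (SE 0.33, adjusted p = 0.177) did not pass. The highest Batf3 peak lies at -11913 bp and carries a 3′ UTR annotation. It had 8.59 and 8.22 (group A) with 8.12 and 7.82 (group B) of the rest phase, against 6.94 and 7.04 (group A) with 6.73 and 7.24 (group B) of the first phase. All rest-phase libraries stood above all first-phase libraries, with a log2 fold of 1.29 (SE 0.23, adjusted p = 0.000455).

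The other Batf3 peaks that rose lie beyond the start, at annotated distances of 9381 to 23272 bp, in sequence annotated as distal intergenic. The authors' annotation measures these from a different Batf3 start than it uses for the peaks upstream. Those at chr1:191122758-191123157 and chr1:191123749-191124148 also overlap the annotated gene Gm46178. The largest fold was at chr1:191123749-191124148. Its levels were 6.19 and 6.26 (group A) with 5.34 and 5.79 (group B) of the rest phase, against 4.51 and 4.75 (group A) with 2.70 and 3.76 (group B) of the first phase. The peak rose by 2.16 on the log2 scale (SE 0.42, adjusted p = 0.000978). Neighbours at chr1:191119302-191119701 and chr1:191122758-191123157 rose by 2.13 and 1.87, and the low peak at chr1:191109858-191110257 by 1.37 (adjusted p = 0.0438). The tall peak at chr1:191125896-191126295, only a short way further on, had a log2 fold of -0.03 (SE 0.18). None of the 16 Batf3 peaks passed in the downward direction under any of the 3 scalings, and 7 rose with the authors' scaling and 9 with total reads.

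**Figure D3:**
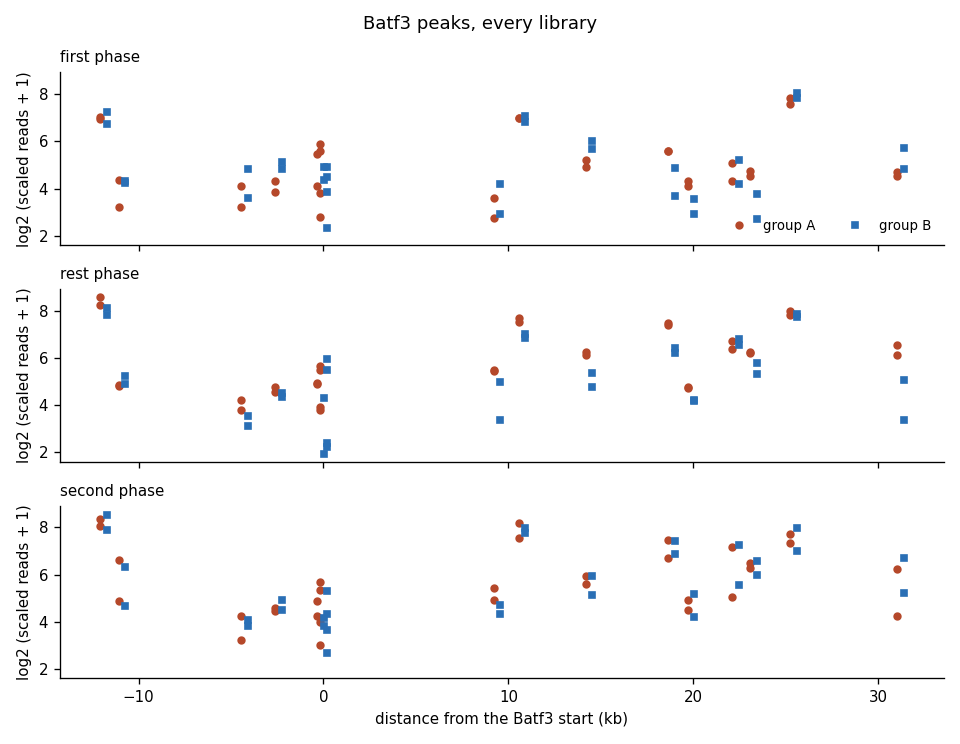
Accessibility at the 16 Batf3 peaks in every library, as log2 (scaled reads + 1), with a panel for each phase. The horizontal axis is the distance in kb from the annotated Batf3 start used for each peak, which is not the same start for all. Circles are group A and squares group B, and at the 3 peaks between 18 and 24 kb that passed, all rest-phase points stand above all first-phase points.

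At Siglech the called falls were at the start and upstream of it. The start peak, at chr7:55767964-55768363, overlaps the promoter printed above and also the annotated gene Gm39015. Its levels were 4.85 and 4.12 (group A) with 5.80 and 5.38 (group B) of the rest phase. In the first phase they were 6.34 and 6.65 (group A) with 6.70 and 5.39 (group B). The ranges overlapped, and the peak fell by 1.14 on the log2 scale (SE 0.41, adjusted p = 0.0402). The call rested on the scaling and on single libraries. The log2 fold was -0.27 (adjusted p = 0.796) with the authors' scaling and -0.72 (adjusted p = 0.138) with total reads, and the call was lost without rest-phase library A1 (log2 fold -1.03), rest-phase A2 (-0.82) or first-phase B1 (-0.89).

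The larger falls at Siglech lay further upstream. At chr7:55744469-55744868, in distal intergenic sequence at -23310 bp, levels were 2.60 and 2.32 (group A) with 3.70 and 2.14 (group B) of the rest phase, against 5.59 and 5.88 (group A) with 5.99 and 4.89 (group B) of the first phase. The groups did not overlap, and the peak fell by 2.83 (SE 0.44, adjusted p = 0.000187). The promoter-annotated peak at chr7:55765305-55765704 fell by 2.23 (SE 0.46, adjusted p = 0.00149). A single Siglech peak rose, at chr7:55710900-55711299, by 1.06 (adjusted p = 0.0457).

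Tcf4 has the most peaks of the 5 genes. Its most 5′ start peak, the highest of all 82, had levels of 7.46 and 7.88 (group A) with 8.37 and 8.22 (group B) of the rest phase. The first phase had 8.28 and 8.36 (group A) with 8.44 and 8.07 (group B). The log2 fold was -0.32 (SE 0.23) and did not pass. A promoter-annotated peak inside the gene, at chr18:69499106-69499505, had the largest change of all 82. Its levels were 1.94 and 2.32 (group A) with 1.94 and 3.21 (group B) of the rest phase, against 6.34 and 5.70 (group A) with 6.90 and 5.11 (group B) of the first phase. Every rest-phase library was below every first-phase library, and the peak fell by 3.64 on the log2 scale (SE 0.47, adjusted p = 3.72e-05). The reads behind it were 3, 5, 4 and 8 in the 4 rest-phase libraries, against 24, 16, 79 and 20 in those of the first phase.

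Another internal promoter of Tcf4 went the other way. At chr18:69415574-69415973 levels were 7.99 and 7.84 (group A) with 7.24 and 7.29 (group B) of the rest phase, against 6.14 and 5.97 (group A) with 6.39 and 5.83 (group B) of the first phase. The peak rose by 1.54 (SE 0.26, adjusted p = 0.000354). The promoter peak at chr18:69593152-69593551 had 6.98 ± 0.28 in the rest phase and 7.02 ± 0.44 in the first phase, with a log2 fold of -0.05 (SE 0.26). Promoter peaks of this gene therefore fell, rose or did not pass according to which start they cover.

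Of the 42 Tcf4 peaks outside promoters, 11 rose and 3 fell. The largest rises were in introns, at chr18:69547794-69548193 by 1.91 and at chr18:69400573-69400972 by 1.88. The first of these differed between the rest-phase groups, with mean levels of 7.43 in group A and 4.88 in group B, beside a first-phase mean of 4.22. The second had 6.15 in group A and 6.02 in group B, beside 4.15 in the first phase. The peak at chr18:69196629-69197028, far upstream, rose by 1.82. The 3 that fell, at chr18:69384398-69384797, chr18:69644632-69645031 and chr18:69662312-69662711, had log2 folds of -1.13, -1.17 and -1.15. With the authors' scaling these folds were -0.15, -0.20 and -0.14 and did not pass, which left the internal promoter peak at chr18:69499106-69499505 (log2 fold -2.81 there) as the only called fall among Tcf4 peaks.

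**Figure D4:**
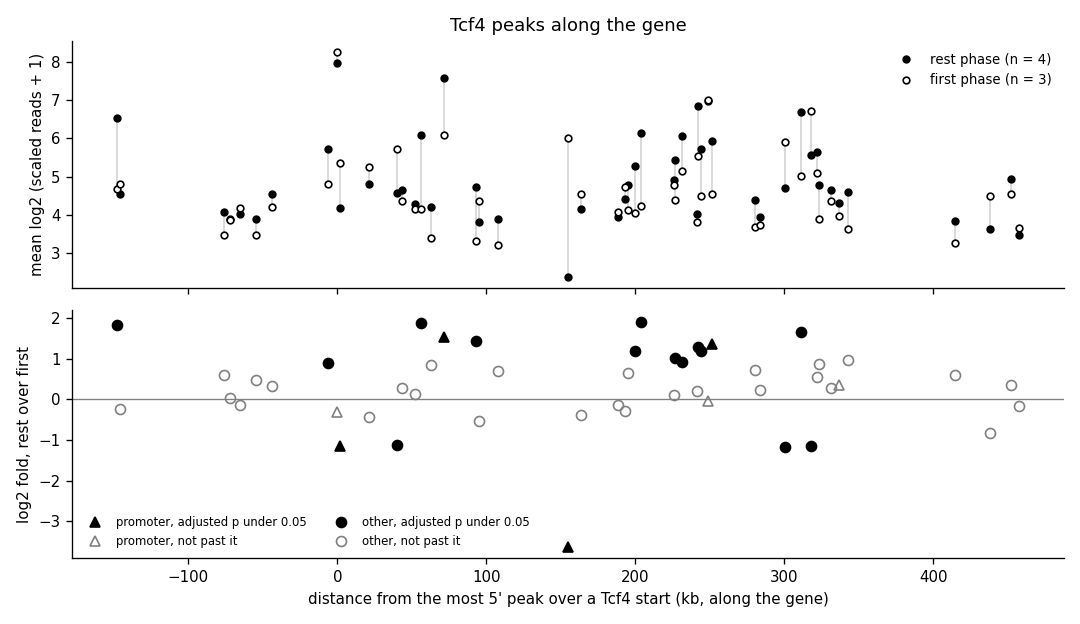
The 49 Tcf4 peaks by distance in kb from the most 5′ peak over a start, with mean accessibility as log2 (scaled reads + 1) in the rest phase (n = 4, filled) and the first phase (n = 3, open) above, and the log2 fold of rest over first below. Triangles are promoter peaks, filled symbols in the lower panel passed an adjusted p of 0.05, and the lowest triangle is the fold of -3.64.

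Mcpt8 had a single low peak, at chr14:56091256-56091655 and -5983 bp from its start. Its levels were 5.02 and 4.97 (group A) with 4.35 and 4.91 (group B) of the rest phase, against 2.75 and 4.54 (group A) with 4.54 and 3.92 (group B) of the first phase. The phases overlapped, and the log2 fold of 0.77 (SE 0.34, adjusted p = 0.0938) did not pass. It passed with the authors' scaling (1.51, adjusted p = 0.0353), with total reads (1.07, adjusted p = 0.0225) and without rest-phase library B1 (0.95).

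Of the genes with no assigned peak, only Cpa3 had a peak inside the gene body. That peak, at chr3:20223304-20223703, was assigned to Mir7007 and had levels of 3.45 and 3.22 (group A) with 4.78 and 2.39 (group B) of the rest phase, against 5.59 and 4.92 (group A) with 5.07 and 4.99 (group B) of the first phase. All rest-phase libraries were below all first-phase libraries, with a log2 fold of -1.62 (SE 0.47, adjusted p = 0.0135). The peak nearest Xcr1 lay 6789 bp away and was assigned to Fyco1, with a log2 fold of 1.80 (SE 0.33, adjusted p = 0.000565). The nearest to Ms4a2 lay 3670 bp away among 15 peaks within 50 kb and was assigned to Ms4a6d, with a log2 fold of 0.53 (SE 0.40, adjusted p = 0.327). Fcer1a had 0 peaks within 50 kb, and the nearest lay 101982 bp away. These peaks belong to other genes in the authors' annotation and say nothing of which gene they act on.

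Wider lists of genes from the same cell types were read in the same fit, chosen, like the members, with earlier results of these data known. Their counts are read against the 19.8% of all peaks that rose and the 18.7% that fell. Of 195 peaks of 13 conventional dendritic cell genes, 64 rose and 39 fell, 52.8% in all. The largest changes were a rise of 4.19 in an intron of Cadm1, an adhesion molecule, and falls of 4.10 in an exon of Irf4, a transcription factor, and of 3.97 at the start of Ccr7, the chemokine receptor of migrating dendritic cells. Of 102 peaks of 10 plasmacytoid genes (9 had a peak, Klk1 none), 16 rose and 22 fell, 37.3% in all and near the 38.5% of all peaks, with falls of 5.14 upstream of Ccr9, a gut-homing chemokine receptor, and 4.02 at the start of Spib, a transcription factor of plasmacytoid and B cells.

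The mast cell list was called more often than all peaks with quantile scaling, and the basophil list was not. A high share was not particular to these cell types. In the same fit 54.35% of macrophage list peaks were called, above the conventional dendritic and mast cell lists, and 42.3% of lymphoid list peaks. Of 82 peaks of 10 mast cell genes (8 had a peak, Mrgprb1 and Mrgprb2 none) 14 rose and 28 fell, 51.2% in all. The largest fall, of 4.11, was near the start of Hdc, which makes histamine. The next, of 3.31, was at an intron-annotated peak assigned to Kit, the stem cell factor receptor. Start peaks of the mast cell genes went both ways, with 2 higher and 2 lower, or 2 and 0 with the authors' scaling. That of Hdc rose by 0.98 (SE 0.30, adjusted p = 0.0188), and that of Kit did not pass (log2 fold -0.38). Of 82 basophil peaks 12 rose and 15 fell, 32.9% in all. Falls were as large as 4.93 upstream of Gata1, a transcription factor, and 3.88 at a distal peak of Cd200r3, a surface receptor. At the start peaks of the 9 basophil genes 3 rose and 2 fell, or 1 and 1 with the authors' scaling. The Cd200r3 start peak rose by 1.06 (SE 0.21, adjusted p = 0.00104), while that of Gata1 did not pass (log2 fold -0.27). The median log2 fold was 0.30 over the conventional dendritic list, -0.02 over the plasmacytoid, -0.43 over the mast cell and -0.21 over the basophil list, beside 0.02 over all peaks and 0.52 over the macrophage list. The balance of calls in these lists depended on the scaling. With the authors' scaling, 75 rose and 15 fell in the conventional dendritic list, 24 rose and 3 fell in the plasmacytoid, 15 rose and 11 fell in the mast cell and 13 rose and 8 fell in the basophil list, against 24.1% and 4.96% of all peaks, with medians of 1.02, 0.80, 0.33 and 0.59 beside 0.76 over all peaks.

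Within the first phase no member peak passed between the groups. None of the 82 passed an adjusted p under 0.05 in the authors' deposited table (0 peaks), and of all 139999 peaks 0% did. With limma, which here sets 1 sample of group A against 2 libraries of group B and passed none of all 139557 peaks, 0 members passed, and 0 of the 82 had an unadjusted p under 0.05, against 1.40% of all peaks, 1958 in number. With the authors' scaling 0 members passed limma, against 0.0150% of all peaks, and with total reads 0 members and 0 of all. The largest gap between group means at a start was at Zbtb46, where the authors' deposited table gives log2 means of 8.40 (A) and 6.62 (B), an unadjusted p of 0.00525 and an adjusted p of 1.00, and shrinks the log2 fold to 0.01. With limma the log2 fold there was 1.78 with quantile scaling and 2.02 with the authors' scaling, and it did not pass. Of the group B libraries, B1 (7.72) lay nearer to group A than B2 (6.61) did.

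Within the rest phase, group A was higher at many Batf3 and Tcf4 peaks in the authors' deposited table. Of the 82 peaks 42 passed there, all higher in group A, against 39.8% of all peaks, 39.7% higher and 0.0929% lower. They include 14 of 16 at Batf3, 24 of 49 at Tcf4, 3 of 8 at Zbtb46, 0 of 8 at Siglech and the Mcpt8 peak. The authors' deposited table has a median log2 fold of 1.19 over the members and 1.04 over all peaks, so group A is higher at most peaks of the genome in that scaling. Group A held 18617444 and 16002834 reads in peaks, against 5459236 and 8775958 in group B. With quantile scaling, limma called 14 members, 11 higher and 3 lower in group A, against 12.0% of all peaks, 6.48% higher and 5.56% lower. Of these, 11 are among the 42 of the authors' deposited table. With total reads limma called 20 members, 15 higher and 5 lower, against 21.4% of all peaks, 13.1% higher and 8.29% lower. Under the authors' scaling limma called 59 members, all higher, against 55.3% of all peaks, 54.9% higher and 0.461% lower.

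The largest fold was at the intron 6 peak of Tcf4, chr18:69547794-69548193. Its levels were 7.75 and 7.11 in group A, against 4.65 and 5.12 in group B. The groups did not overlap. The authors' deposited table gives a log2 fold of 3.15 (adjusted p = 1.37e-05), and limma with quantile scaling 2.54 (SE 0.27, adjusted p = 0.00172). The quantile-scaled fold was 2.19 to 2.85 without each library in turn, where 1 library stands against 2 and no peak of the genome passes. The same Tcf4 peak was called higher in the rest phase than in the first phase, where its levels were 4.07 and 4.34 (group A) with 3.96 and 4.51 (group B).

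At Batf3 the largest fold was at chr1:191131678-191132077, with levels of 6.54 and 6.14 in group A, against 3.36 and 5.07 in group B. The log2 fold was 2.40 in the authors' deposited table (adjusted p = 0.00086) and 2.20 with quantile scaling (SE 0.50, adjusted p = 0.0239). The Batf3 start peak passed in the authors' deposited table with a log2 fold of 1.15 (adjusted p = 0.0436), but its level was 5.66 and 5.48 in group A, against 5.51 and 5.96 in group B, and the fold with quantile scaling was -0.17 (SE 0.26). The Tcf4 start peak likewise turned, with 0.61 in the authors' deposited table (adjusted p = 0.326) and -0.53 with quantile scaling (SE 0.15, adjusted p = 0.0467). Siglech leaned the other way once scaled, with 2 distal peaks lower in group A, at chr7:55737561-55737960 by 1.37 and at chr7:55734452-55734851 by 1.25. The 3′ UTR peak of Zbtb46 had 1.67 in the authors' deposited table (adjusted p = 0.00814) and 0.33 with quantile scaling (adjusted p = 0.303). The Mcpt8 peak had 1.34 in the authors' deposited table (adjusted p = 0.0306) and 0.38 with quantile scaling (adjusted p = 0.481).

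**Figure D5:**
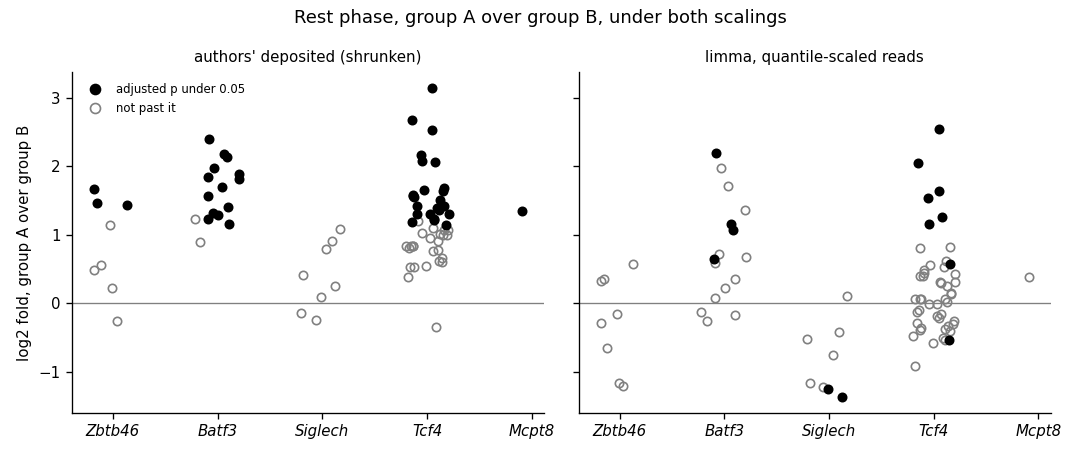
Log2 fold of group A over group B in the rest phase at the 82 peaks by gene, from the authors' deposited table on the left and from limma on quantile-scaled reads on the right. Filled circles passed an adjusted p of 0.05, 42 on the left and 14 on the right, and the right panel is centred near 0.

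Within the second phase, the authors' deposited table called 22 of the 82 peaks, all higher in group A, against 26.7% of all peaks, 26.7% higher and 0.00429% lower. They are 9 at Batf3, 12 at Tcf4 and the start peak of Siglech. The largest was at the Batf3 start, with a log2 fold of 1.66 in the authors' deposited table (adjusted p = 0.0242). The levels there were 5.67 and 5.33 in group A, against 5.31 and 4.32 in group B. The groups did not overlap, but by only a small margin. At Tcf4 the largest was at chr18:69346266-69346665, over a start, with 1.59 in the authors' deposited table (adjusted p = 0.0248). With limma, 0 of the 82 members and 0 of all peaks passed under any of the 3 scalings, and 0 members and 1076 of all peaks had an unadjusted p under 0.05 with quantile scaling. Group A held 17994363 and 10299555 reads in peaks, against 3832347 and 6075270 in group B, and each group holds 1 of the libraries whose interferon-response genes lay near the rest phase.

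In the second phase against the rest phase, no member passed over all libraries. With limma 0 of 82 members and 0 of all peaks passed an adjusted p under 0.05. At an unadjusted p under 0.05 there were 9 members, 2 higher and 7 lower, against 11.4% of all peaks, 6.58% higher and 4.86% lower, and with the authors' scaling 0 members passed, against 0.135% of all. Libraries did not overlap at 2 members above and 8 below, against 2.26% and 3.64% of all peaks. The Zbtb46 start peak, with a mean of 4.75 ± 0.18 in the second phase and 5.33 ± 0.17 in the rest phase (SD, n = 4 each), had a log2 fold of -0.61 (SE 0.27, unadjusted p = 0.0454, adjusted p = 0.431).

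Without second-phase libraries A1 and B1, an alternative chosen after seeing the data, 10 of the 82 members passed, 4 higher and 6 lower, against 15.2% of all peaks, 9.14% higher and 6.11% lower. A1 and B1 were left out because they lay near the rest phase, so the choice itself favours calls. A2 and B2 alone then stand for the second phase. At Tcf4 the intron peak chr18:69644632-69645031 had levels of 6.32 in A2 and 7.22 in B2 of the second phase, against 4.99 and 4.20 (group A) with 4.78 and 4.80 (group B) of the rest phase. It rose by 2.13 on the log2 scale (SE 0.36, adjusted p = 0.00351). The libraries left out had 4.52 (A1) and 3.99 (B1) there, within or below the range of the rest phase. The Tcf4 peaks at chr18:69628118-69628517 and chr18:69300243-69300642 rose by 2.03 and 1.85. Another 4 Tcf4 peaks fell, at chr18:69571009-69571408 by 1.63, chr18:69586011-69586410 by 1.25, chr18:69588424-69588823 by 1.18 and chr18:69575384-69575783 by 1.05. At chr18:69586011-69586410 the libraries left out had 7.15 (A1) and 7.04 (B1), above every rest-phase library. At the other falling Tcf4 peaks A1 and B1 lay below every rest-phase library.

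At Batf3, the peak at chr1:191086542-191086941 had 6.63 in A2 and 6.33 in B2 of the second phase, against 4.80 and 4.84 (group A) with 4.91 and 5.22 (group B) of the rest phase. It rose by 1.59 (SE 0.29, adjusted p = 0.00532). The peak at chr1:191122758-191123157, which had risen in the rest phase against the first phase, had 5.06 in A2 and 5.57 in B2, against 6.72 and 6.37 (group A) with 6.81 and 6.53 (group B) of the rest phase. It fell by 1.33 (SE 0.27, adjusted p = 0.00893), but the libraries left out had 7.15 (A1) and 7.26 (B1) there, above every rest-phase library. The peak at chr1:191125896-191126295 fell by 0.62 (SE 0.18, adjusted p = 0.0457). No peak of Zbtb46, Siglech or Mcpt8 passed in this subset.

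The start peaks were also set beside those of other genes over the 12 libraries, among 15243 start peaks with a mean of at least 20 reads. The correlations describe profiles that share the same libraries and their depth. Most like Zbtb46 were Rb1 (Pearson r = 0.990), Lrrc56 (0.989) and Lpcat1 (0.987). The gene most like Tcf4 was Vamp3 (0.981), most like Siglech was Klhl30 (0.964), most like Mcpt8 was Faiml (0.939) and most like Batf3 was Arhgef6 (0.908).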

How the data were processed

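Per the submitters' processing notes, reads were processed on mm10 with tools that include Bowtie2 2.5.4, Picard 3.2.0, MACS2, DiffBind 3.14.0 and DESeq2, with no statement of what each did. For every phase there is a table over the same 139999 peaks, in which the authors deposited log2 means of normalized reads for both groups, together with a log2 fold change shrunken towards 0. The authors also deposited a p-value for each peak, its adjusted form and the gene assigned to the peak. The deposited fold was turned to A over B in the first and second phases. In the second phase the deposited adjusted p is 1 for 38000 peaks, 22 of them members, which count as not passing.

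Because each group mean averages 2 whole read numbers times a library factor, reads of all 12 libraries were recovered, with exactly 1 pair for every value above 0 (largest relative miss 3.47e-09). Libraries are numbered 1 and 2 within a group by the worth of a read. This numbering does not follow the replicate numbers in the titles. All 82 members and 139557 peaks entered the tests on reads, and 442 peaks with a listed 0 did not. Comparisons between phases used limma 3.58.1 (R 4.3.3) on log2 (quantile-scaled reads + 1), with empirical Bayes variances that follow the signal and Benjamini-Hochberg adjustment over all peaks, and pooled groups A and B. Reads were scaled over the libraries of each comparison, so fold changes differ slightly from differences of the levels, which were scaled over all 12. Within a phase the authors' deposited calls are the main result and limma an alternative, in which the first-phase group A pair counts as 1 sample. The steps were tested on simulated data.

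Named are each gene's start peak (nearest to a start, the higher on a tie), its highest peak and, in each comparison, the called peak with the largest log2 fold. Other peaks named were chosen after their values were seen. Of the wider lists, at most 4 called peaks with the largest fold are named. The members and lists were chosen with earlier results of these data known. The 11 interferon-response genes were Ifit1, Ifit2, Ifit3, Isg15, Mx1, Gbp2, Gbp5, Cxcl10, Irf1, Oas2 and Rsad2. Alternatives were the authors' scaling, total reads in peaks, another pseudocount (5), a filter at a mean of 10 reads, a threshold of 0.01, promoter peaks only, separate means per group and leaving out each library.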

Additional observations from a re-analysis of the deposited data

How the results depend on the processing

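The count of 29 member peaks that passed in the rest phase against the first phase ran from 20 to 28 without each library in turn, fell to 17 at a threshold of 0.01 and was 7 among promoter peaks only. With the authors' scaling it was 30, of which 22 are among the 29, and with total reads 32, of which 24 are. Within the rest phase, there were 42 deposited calls, or 20 at a threshold of 0.01, where limma called 59 with the authors' scaling, 20 with total reads and 14 with quantile scaling. Without each of the 4 libraries in turn, the quantile-scaled fit called 0 members and 0 of all peaks, since it then sets 1 library against 2, so these counts say nothing of any 1 library. Within the second phase, there were 22 deposited calls, or 0 at a threshold of 0.01. Limma called 0 with each of the 3 scalings on all 4 libraries. Leaving out each library in turn again sets 1 library against 2, so those fits say nothing of any 1 library. In the second phase against the rest phase, the count of 0 became 10 without A1 and B1, a choice that itself favours calls. The sign turned at the Batf3 start in the rest phase, to -0.17 with quantile scaling, and its fold ran from -0.42 to 0.062 without each library in turn. It also turned at the Siglech start in the rest phase (-0.94 with total reads). With quantile scaling the 2 promoter-annotated Siglech peaks, the start among them, had folds of -1.225 and -1.163 in that phase. The sign turned too at the Tcf4 start in the rest phase (-0.53 with quantile scaling, -0.56 with total reads), at the highest Batf3 peak in the second phase (-0.000244 with quantile scaling, and -0.24 to 0.25 without each library in turn) and at the Siglech start in the second phase (-0.44 to 1.23 without each library in turn). Over all results and alternatives, 314 kept their direction and side of the threshold, 65 lost a call, 5 gained one, 38 moved and 11 reversed. Within a phase, every alternative but the threshold also replaces the deposited test by limma. The causes were not tested. Leaving out a first-phase group B library gives no value within that phase, since no residual degree of freedom is left, and a lone sample elsewhere is assumed to vary like the other group. No paired analysis was possible because the recovered libraries carry no replicate number of the labels.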
